A study of Bos taurus with 27 samples.

Results

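The expression of 10 genes of lipopolysaccharide (LPS) sensing and Toll-like receptor (TLR) signaling was examined in the rumen epithelium (RE) of Japanese Black cattle across the fattening period. The genes were CD14, LY96, TLR4, TLR2, TLR6, TLR5, TLR3, MYD88, IRAK1 and NFKB1. They were found by gene name among the probes of a customized bovine microarray, where each had 1 probe, and they make 10 of the 14952 gene names on it. The same 9 cattle, castrated bulls with a rumen fistula, were biopsied once in each of 3 fattening stages, called early (14 months old), middle (21 months) and late (29 months), while they received rice straw and concentrate. The paper states that the concentrate was raised gradually, but the intake it measured was highest at the middle stage. RE was taken with a punch from the ventral sac, and each biopsy was hybridized to 1 one-color array, which gave 27 arrays, 9 per stage. There was no group without the high-grain diet, and age, body weight and ration all changed together with the stage. The comparisons therefore ask how RNA levels differed within an animal between the middle and early stages (first period), the late and middle stages (second period) and the late and early stages (total period).

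LPS is the outer membrane glycolipid of Gram-negative bacteria, and it is released in the rumen when grain feeding lowers the pH. In the textbook account, LPS-binding protein hands LPS to CD14, which passes it to a complex of TLR4 and LY96 (also called MD-2) on the cell surface. Other TLRs recognize bacterial lipopeptides, flagellin or double-stranded RNA, and most of them signal through the adaptor MYD88 and the IRAK kinases to the NF-kB transcription factors.

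A level is given below as the log2 of the background-subtracted spot signal minus the median of all probes on the same array. A level of 0 is thus the array median, and levels are compared only between stages for the same probe, apart from naming the brightest probe of a marker list. A probe counts as measured on an array when the scanner software called it well above background. The middle-stage arrays were dimmer than the others. Their median signals ran from 8.06 to 28.1 intensity units with a median of 16.4, against 34.5 to 47.6 at the early stage and 31.4 to 46.0 at the late stage. From 48.5% to 71.5% of probes were well above background on a middle-stage array, against 68.8% to 78.1% at the early and 68.4% to 73.7% at the late stage. The change of a probe between stages went with its brightness. The median log2 change of all 15008 probes was 0.32 in the first, −0.27 in the second and 0.03 in the total period. Among the 2042 probes that were never well above background it was 1.33, −1.39 and −0.03, and among the 6797 that were well above background on all 27 arrays it was 0.08, 0.10 and 0.14. Changes relative to the median of all probes are given beside the main results for this reason. That median includes the dim probes, so for a gene measured on all or most arrays the 6797 probes are the closer comparison.

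**Figure D1:**
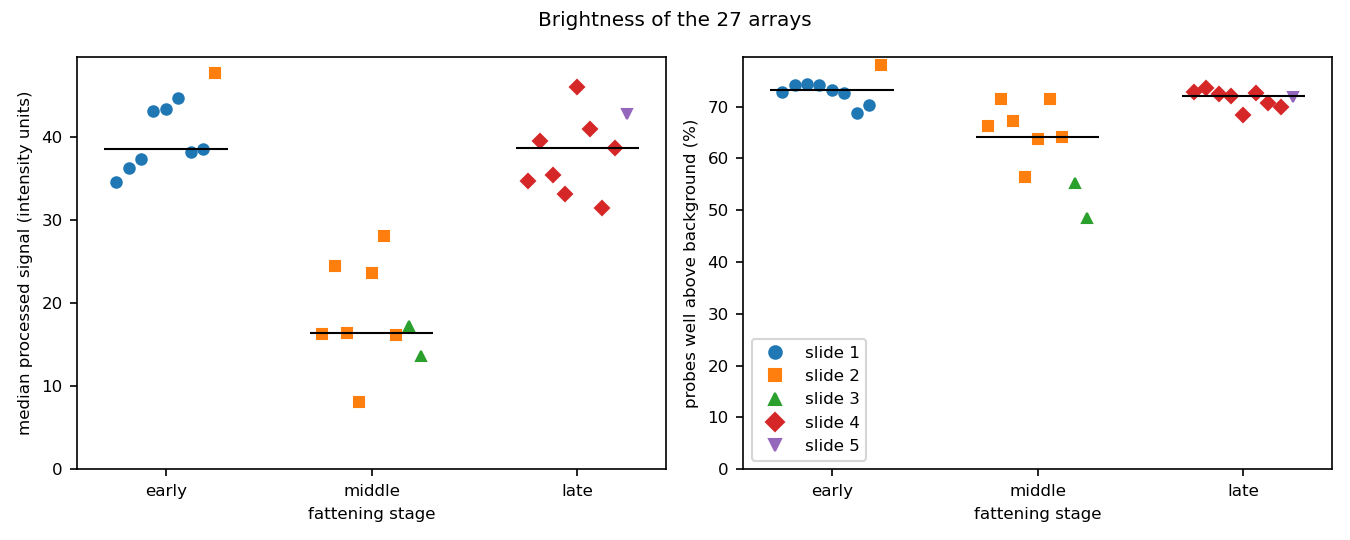
Median processed signal (left, intensity units) and percentage of probes well above background (right) of each of the 27 arrays by fattening stage, with the color and shape of a point giving its slide and black lines the stage medians. The middle-stage medians, 16.4 units and 64.1%, lie below those of the early stage (38.5 units, 73.2%) and the late stage (38.7 units, 72.1%).

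Slide and stage were largely bound together. Slide 1 held 8 early-stage arrays, slide 2 held 1 early-stage and 7 middle-stage arrays, slide 3 held 2 middle-stage arrays, and the 9 late-stage arrays were on slides 4 and 5. Slides 1 and 2 were scanned on the first scan day and the others on 3 further days. Only the first period could therefore be compared within a slide, where it rests on 1 early-stage array, or within a scan day. For the late stage, slide and stage cannot be told apart beyond treating the slide as a random block.

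The labeled tissue was checked against marker genes, because the extraction note in the labels names neutrophils and liver. Of 15 markers of stratified epithelium on the array, 14 were well above background on all 9 arrays of at least 1 stage, with the probe of the keratin KRT6A the brightest, and the exception KRT4 was measured on 0 of 27 arrays. Among 7 hepatocyte markers, albumin (ALB) and FGA were measured on no array, and 3 were measured on a whole stage, APOA1 being the brightest. Among 9 neutrophil markers, 5 were measured on a whole stage, CSF3R and CXCR2 among them, while ELANE was measured on no array and MPO on 2. The brightest was ITGB2, which other leukocytes also carry. Leukocyte markers were present. Of 7 genes shared by all leukocytes, each was well above background on all 9 arrays of at least 1 stage, CD52 being the brightest. Of 10 macrophage and monocyte markers, 5 were, with CSF1R the brightest and ITGAM and MARCO measured on no array. Of 10 T cell markers, 8 were measured on a whole stage, LCK being the brightest, while CD4 was measured on no array. Of 5 B cell markers, 3 were measured on a whole stage, PAX5 being the brightest.

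Marker levels also moved between stages. The summed signal of the 15 epithelial markers, in multiples of the array median, ran from 3947 to 5307 with a median of 4758 at the early stage, from 966 to 5126 with a median of 2542 at the middle stage and from 4639 to 5794 with a median of 5167 at the late stage. That of the 7 leukocyte genes had medians of 99.99, 144 and 76.8, and that of the 10 macrophage markers of 59.99, 58.7 and 67.5. The medians were 56.0, 45.2 and 45.5 for the neutrophil list, 11.996, 10.4 and 16.2 for the T cell list and 3.83, 6.17 and 4.30 for the B cell list. Of the 10 T cell genes 0 were called higher and 4 lower in the total period, with a median log2 change of −0.35, although their sum rose. Of the 7 leukocyte genes 0 were called higher and 5 lower in that period (median −0.60), beside 11.2% and 8.93% of all probes. Of the 15 epithelial genes 2 were called higher and 9 lower in the first period, beside 45.3% and 21.3% of all probes. The median sums of 7 fibroblast genes, led by COL1A2, were 279, 458 and 288, and those of 6 smooth muscle genes, led by ACTA2, were 178, 326 and 147. Endothelial genes, led by CLDN5, gave 52.6, 66.7 and 57.2, the hepatocyte list gave 2.65, 2.48 and 2.83, and 5 red blood cell genes, led by HBA, gave 61.001, 140.5 and 56.9. In biopsies of mixed cells, fewer cells of a type and less RNA per cell cannot be told apart, and the part of cell composition in the results below was not tested.

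Of the 10 genes, 4 were well above background on all 27 arrays, namely CD14, TLR2, MYD88 and NFKB1. TLR4 and TLR5 were measured on all but 1 middle-stage array, LY96 on 7 of 9 and IRAK1 on 4 of 9 middle-stage arrays, and these 4 were measured on all early-stage and late-stage arrays. TLR3 was measured on 4 arrays in all, 2 early and 2 late, and TLR6 on 5 early, 1 middle and 3 late. No spot of the 10 was saturated. With the animal as a block in limma, and adjusted *P* below 0.05 over all probes, 6 of the 10 changed in the first period (3 higher, 3 lower), where 66.5% of all probes did (45.3% higher, 21.3% lower). In the second period 8 did (5 higher, 3 lower), where 71.5% of all probes did (27% higher, 44.6% lower). In the total period 4 did (3 higher, 1 lower), where 20.1% of all probes did (11.2% higher, 8.93% lower). The median log2 change of the 10 was 0.08, 0.18 and 0.12 in the 3 periods. Changes were thus so common on these arrays that the counts of the first and second periods lie near the background.

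**Figure D2:**
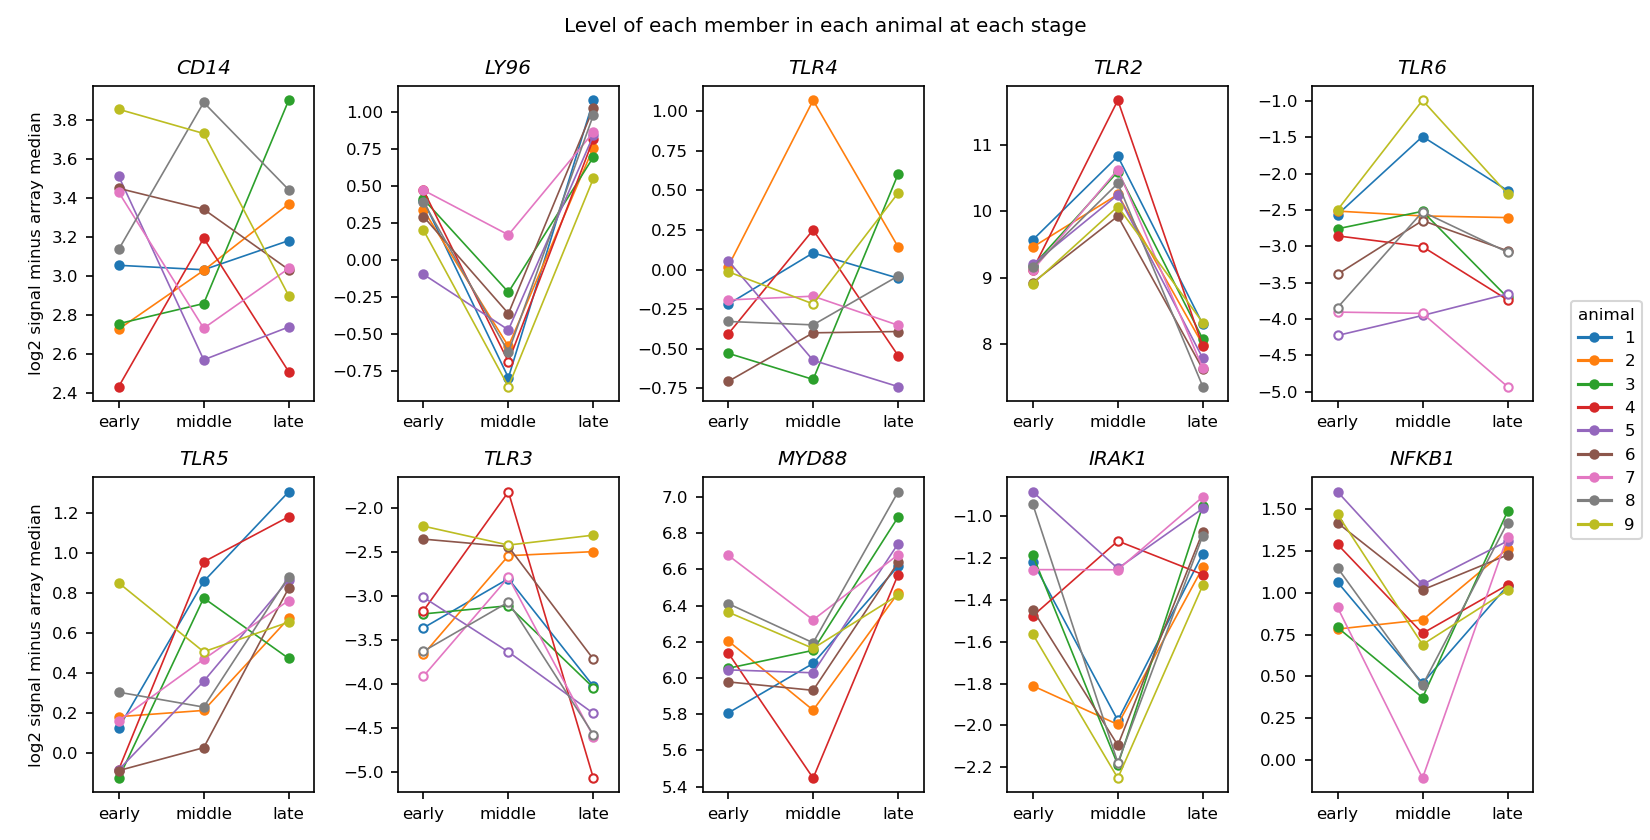
Level of each of the 10 genes (log2 signal minus array median) at the 3 stages, with 1 line per animal; filled points were well above background and open points were not. LY96 dips and TLR2 peaks at the middle stage in all 9 cattle, whereas the lines of CD14 and TLR4 cross.

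The LPS receptor complex is shown first by its probes, because the findings rest on what each probe can bind. In the build the array files name, bosTau6 (UMD_3.1), the TLR4 probe lies at chr8:108837183-108837242 on the plus strand and starts at base 988 of its transcript, and the LY96 probe lies at chr14:39385072-39385131 on the minus strand and starts at base 782. The CD14 probe lies at chr7:53447621-53447680 on the minus strand and starts at base 1215. Exon and untranslated region annotation of that build was not used here. Capitals mark the longest run of bases shared with the probe of any other gene on either strand, 13 bases for TLR4 and LY96 and 14 for CD14, of 60. TLR4 is printed whole and the other 2 as 30 bases.
TLR4: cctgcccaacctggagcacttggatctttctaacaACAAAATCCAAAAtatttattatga
LY96: acggcttccCTTCAATGTTATAcagggctc
CD14: gagagggaAGAGGAATGAATTGgctcagat

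LY96, the secreted protein that holds the lipid A part of LPS in the TLR4 complex, was lowest at the middle and highest at the late stage. Its level ran from −0.10 to 0.47 with a median of 0.39 at the early stage, from −0.85 to 0.17 with a median of −0.58 at the middle stage, and from 0.55 to 1.08 with a median of 0.84 at the late stage. The late-stage values lay above all values of the other stages, and the early and middle values overlapped through animal 5, low at the early stage, and animal 7, high at the middle stage. Mean levels were 0.32 ± 0.18, −0.49 ± 0.32 and 0.85 ± 0.17 (SD, n = 9). Within animals LY96 fell in 9 of 9 cattle in the first period, with differences from −1.1975 to −0.30, and the fitted log2 change was −0.81 ± 0.12 (SE, limma adjusted *P* = 1.24e-05), or −1.34 under cyclic loess and −0.18 with normexp background correction. It then rose in 9 of 9, with a log2 change of 1.34 ± 0.12 or 2.53-fold (limma adjusted *P* = 1.64e-08), which was 1.79 and 0.44 under the same 2 settings and past the threshold in both. From the early to the late stage it was 1.44-fold higher, also in 9 of 9 cattle (log2 change 0.53 ± 0.12, limma adjusted *P* = 0.00348, or 0.26 with normexp background correction). With normexp background correction the medians of the 6797 probes measured on all arrays were −0.29, 0.55 and 0.23. LY96 thus moved about as the bright probes did in that setting, also where it passed the threshold. With median scaling, the 3 fitted changes beside the all-probe median were −1.14, 1.61 and 0.49. In the first period the log2 change was −0.75 on the first scan day alone (adjusted *P* = 0.00372), −0.77 with slide as a fixed block (adjusted *P* = 0.330) and −0.62 within slide 2 (adjusted *P* = 0.421). With slide as a random block the changes were −0.87, 1.37 and 0.51, with adjusted *P* of 0.00100, 6.27e-05 and 0.305, so the total period lost its call.

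CD14, the membrane and soluble coreceptor that delivers LPS to TLR4, had no such pattern. Levels ran from 2.43 to 3.86 with a median of 3.14 at the early stage, from 2.57 to 3.89 with a median of 3.03 at the middle stage, and from 2.51 to 3.90 with a median of 3.04 at the late stage. These ranges overlapped almost wholly, and single animals moved both ways, with differences in the total period from −0.96 to 1.15. The log2 change was 0.00 ± 0.20 in the first (limma adjusted *P* = 0.991), −0.03 ± 0.20 in the second (adjusted *P* = 0.898) and −0.03 ± 0.20 in the total period (adjusted *P* = 0.955), higher in 4, 5 and 5 of 9 cattle. With normexp background correction the values were −0.35, 0.55 and 0.20, the second past the threshold (adjusted *P* = 0.0157), but the medians of the 6797 probes measured on all arrays were −0.29, 0.55 and 0.23 in that setting, so CD14 moved with the bright probes there. The 95% interval of the total change, −0.44 to 0.39, leaves room for moderate changes in either direction. In the first period the value was −0.84 with slide as a fixed block, −0.89 within slide 2 and −0.09 on the first scan day alone, none of them past the threshold.

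TLR4, the receptor that signals LPS across the membrane, likewise did not pass the threshold in any period. Its level ran from −0.71 to 0.06 (median −0.22) at the early, from −0.69 to 1.07 (median −0.22) at the middle and from −0.74 to 0.60 (median −0.05) at the late stage. Animal 2 was highest at the middle stage and animal 3 at the late stage, and the 3 ranges overlapped. The log2 changes were 0.15, 0.01 and 0.16, each with an SE of 0.19, higher in 5, 4 and 6 of 9 cattle (limma adjusted *P* = 0.49, 0.966 and 0.623). The sign of the first-period change turned to −0.33 under cyclic loess, where the second-period change became 0.49 (adjusted *P* = 0.0486), and the latter was −0.18 under 75th percentile scaling. Within the complex, LY96 thus changed where CD14 and TLR4 did not pass the threshold with median scaling, and the difference between these genes was not itself tested.

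TLR2, the receptor for bacterial lipopeptides in pairs with TLR1 or TLR6, had the probe with the largest changes of the 10 in the second and total periods. Its level ran from 8.91 to 9.57 with a median of 9.16 at the early stage, from 9.93 to 11.7 with a median of 10.4 at the middle stage and from 7.37 to 8.33 with a median of 7.97 at the late stage. No 2 stages overlapped. The log2 change was 1.33 ± 0.16 in the first (limma adjusted *P* = 2.00e-06), −2.62 ± 0.16 in the second (adjusted *P* = 2.41e-10) and −1.28 ± 0.16 in the total period (adjusted *P* = 1.44e-05), each in the same direction in 9 of 9 cattle. These are folds of 2.52, 6.13 and 2.44, and beside the all-probe median the log2 changes were 1.01, −2.34 and −1.32. The direction stayed the same under every scaling tried, and with normexp background correction the first-period change was 0.75. The first-period change was 1.36 on the first scan day alone (adjusted *P* = 0.00116), 1.02 with slide as a fixed block (adjusted *P* = 0.314) and 1.68 within slide 2 (adjusted *P* = 0.193). With slide as a random block the 3 changes were 1.37, −2.51 and −1.14 (adjusted *P* = 0.000406, 4.38e-06 and 0.0453).

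What the TLR2 probe bound is uncertain, and its processed signal changed less in the first period than its level did. That signal, 6287 to 29764 intensity units over the 27 arrays, had a median of 26234 on the dim middle-stage arrays (14627 to 29764) against 22881 at the early stage (21176 to 26283). The dimmest middle-stage array, of animal 4 (array median 8.06), had a TLR2 signal of 26234 and the highest level, 11.7. The brightest, of animal 6 (array median 28.1), had 27360 and the lowest middle-stage level, 9.93. In animal 9 the signal fell from 22881 to 14627 while the level rose. The part of array brightness in the first-period change was not tested. The probe lies at chr17:3950552-3950611 on the minus strand and starts at base 2771 of the transcript. It shares 28 consecutive bases with the probe named NEPN, which is written on the opposite strand, and 51 of 54 aligned bases of the pair are identical. The next longest shared run of any of the 10 probes was 15 bases, for NFKB1. The 2 are shown as 30 bases each, with the shared run in capitals, and one run is the reverse complement of the other.
TLR2: ATGACAGAGGATGAGATGGTTGGATGGCtt
NEPN: tGCCATCCAACCATCTCATCCTCTGTCATc

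The NEPN probe was well above background on all 27 arrays, with early, middle and late levels of 7.46 ± 0.12, 7.63 ± 0.26 and 7.17 ± 0.12 (SD, n = 9). Its log2 changes were 0.17, −0.46 and −0.29 in the 3 periods (limma adjusted *P* = 0.138, 0.000432 and 0.0462), the same signs as TLR2 at smaller size. Over the 27 arrays, which share their scaling and their stages, the Pearson correlation of the TLR2 and NEPN levels was 0.85, and after subtracting stage means 0.72. Probes of CHRM3, YARS2 and DHTKD1, which share at most 9 bases with the TLR2 probe, correlated with it more closely. Their correlations were 0.99 each, and 0.93, 0.91 and 0.88 after subtracting stage means. Whether the likeness to NEPN comes from the shared run was not tested. Whether RNA from other genomic copies of the shared run reached the TLR2 probe was not tested, as no genome was used here. The probe's values are therefore given as those of the probe named TLR2.

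TLR6, a partner of TLR2, was near background. It was measured on 5, 1 and 3 arrays of the 3 stages, with levels from −4.23 to −2.50 at the early, from −3.95 to −0.99 at the middle and from −4.93 to −2.23 at the late stage, and the ranges overlapped. With 1 middle-stage array measured, no fitted value is read as a size of change. The first period passed the threshold with 6 of 9 cattle higher (limma adjusted *P* = 0.0218) and the second with 8 of 9 lower (adjusted *P* = 0.00877), but both directions turned under cyclic loess and under quantile normalization, the first also within slide 2. The total period did not pass the threshold (adjusted *P* = 0.840). Of the other partners of TLR2, TLR1 was measured on 2 early and 1 middle array and TLR10 on 1 early and 1 late array. Signals this near background give no size of change for either.

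TLR5, the receptor for flagellin, rose over the total period. Its level ran from −0.12 to 0.85 with a median of 0.13 at the early stage, from 0.03 to 0.95 with a median of 0.47 at the middle stage and from 0.47 to 1.30 with a median of 0.82 at the late stage. Neighboring stages overlapped, and the early and late values overlapped through animal 9, whose early level was the highest of that stage and whose late level was lower by 0.20. The other 8 cattle rose. The log2 change of the total period was 0.71 ± 0.14 or 1.63-fold (limma adjusted *P* = 0.00172), and 0.67 beside the all-probe median, or 0.37 with normexp background correction. The 2 steps were 0.35 ± 0.14 in the first (adjusted *P* = 0.0382, higher in 7 of 9) and 0.36 ± 0.14 in the second period (adjusted *P* = 0.0315, higher in 8 of 9). Beside the all-probe median they were 0.02 and 0.63, so the first was about the shift of all probes, dim ones included. Among the 6797 probes measured on all arrays the median changes were 0.08 and 0.10, smaller than either step of TLR5. Both steps were fragile. The first turned to −0.06 under cyclic loess and −0.33 within slide 2, was 0.51 on the first scan day alone and 0.10 with slide as a fixed block, and the second was 0.17 under 75th percentile scaling (adjusted *P* above the threshold). With slide as a random block the total change was 0.56 (adjusted *P* = 0.338). The TLR5 probe had no position in the build.

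TLR3, the endosomal receptor for double-stranded RNA, was the other member near background. It was measured on 2 early, 0 middle and 2 late arrays, with levels from −3.91 to −2.21, from −3.64 to −1.81 and from −5.07 to −2.31. As no middle-stage array and few others measured the probe, no size of change is given. Its values were higher at the middle than at the early stage in 6 of 9 cattle. That direction turned with slide as a fixed block, within slide 2, and under 2 normalizations, quantile and cyclic loess. In the second period the values were lower in 7 of 9 cattle and passed the threshold (limma adjusted *P* = 0.000812). They did not pass under those 2 normalizations or with slide as a random block (adjusted *P* = 0.0934). The fall had the direction of the probes never well above background, whose median log2 change was −1.39. In the total period they were lower in 8 of 9 cattle and did not pass (adjusted *P* = 0.0622). They passed in 6 of 21 alternative settings, among them 75th percentile scaling (limma adjusted *P* = 0.0435).

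MYD88, the adaptor that couples most TLRs to the IRAK kinases, was measured on every array and rose late. Its probe lies at chr22:11650941-11651000 on the plus strand and starts at base 2499 of the transcript. Levels ran from 5.81 to 6.68 with a median of 6.14 at the early stage, from 5.45 to 6.32 with a median of 6.08 at the middle stage and from 6.46 to 7.03 with a median of 6.64 at the late stage. All late values lay above all middle values, while early and late values overlapped through animal 7. The first-period change did not pass the threshold (log2 change −0.17 ± 0.11, limma adjusted *P* = 0.178, lower in 7 of 9). MYD88 then rose in 9 of 9 cattle, by 0.66 ± 0.11 or 1.58-fold (adjusted *P* = 3.47e-05), or 0.47 under cyclic loess and 1.33 with normexp background correction, and the total change was 0.49 ± 0.11 or 1.40-fold, again in 9 of 9 (adjusted *P* = 0.00393). The smallest total difference was 0.0028, in animal 7. Beside the all-probe median the second and total changes were 0.93 and 0.46. The total change was 0.29 under cyclic loess (adjusted *P* = 0.0564), 0.30 under quantile normalization and 0.41 with slide as a random block (adjusted *P* = 0.404), and 0.76 with normexp background correction (adjusted *P* = 0.0839), past the threshold in none of them, whereas the second-period change was 0.63 with that block (adjusted *P* = 0.0114).

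IRAK1, the kinase recruited by MYD88, dipped at the middle stage, where it was measured on only 4 of 9 arrays. Its probe spans chrX:40129155-40130338 on the minus strand, 1184 bases for 60 of sequence, so that it joins parts of the transcript that lie apart in the genome. The level ran from −1.81 to −0.88 (median −1.25) at the early, from −2.25 to −1.12 (median −1.996) at the middle and from −1.33 to −0.91 (median −1.09) at the late stage, and all 3 ranges overlapped. Animals 4, 5 and 7 stood above the other 6 at the middle stage. The log2 change was −0.50 ± 0.14 in the first (limma adjusted *P* = 0.00473, lower in 8 of 9), 0.70 ± 0.14 in the second (adjusted *P* = 0.000248, higher in 8 of 9) and 0.20 ± 0.14 in the total period (adjusted *P* = 0.374, higher in 7 of 9). With normexp background correction the 3 values turned to 0.10, −0.11 and −0.01. Over all alternative settings the value ran from −1.12 to 0.10 in the first period and from −0.11 to 1.36 in the second. With slide as a random block the first-period change was not past the threshold. The first-period change was −0.37 on the first scan day alone (adjusted *P* = 0.102), −0.02 when slide was a fixed block and −0.13 in slide 2, so it lost its call in each.

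NFKB1, the gene of the p105 precursor of the NF-kB subunit p50, showed the same order of stages and was measured on all 27 arrays. Its probe starts at base 2932 of the transcript and lies at chr6:23558129-23558188 on the minus strand. Capitals again mark the longest run shared with another gene's probe.
NFKB1: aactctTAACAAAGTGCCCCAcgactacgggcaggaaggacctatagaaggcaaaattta

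The level of NFKB1 ran from 0.78 to 1.6039 with a median of 1.15 at the early stage, from −0.11 to 1.05 with a median of 0.69 at the middle stage and from 1.01 to 1.49 with a median of 1.26 at the late stage. Animal 7 was lowest at the middle stage, and the ranges overlapped. NFKB1 fell in 8 of 9 cattle in the first period (log2 change −0.55 ± 0.14, 1.46-fold, limma adjusted *P* = 0.00171) and rose in 9 of 9 in the second (0.62 ± 0.14, 1.54-fold, adjusted *P* = 0.000465). Over the total period the log2 change was 0.07 ± 0.14 (adjusted *P* = 0.775), or −0.05 under 75th percentile scaling, with a 95% interval of −0.21 to 0.36. Beside the all-probe median the 3 changes were −0.88, 0.89 and 0.04. The first-period change was −0.50 both on the first scan day alone (adjusted *P* = 0.0172) and with slide as a fixed block (adjusted *P* = 0.612), and −0.84 within slide 2 (adjusted *P* = 0.329). With slide as a random block the first 2 changes were −0.63 and 0.62 (adjusted *P* = 0.0209 and 0.0367). The summed signal of the epithelial markers, given above, likewise had its lowest median at the middle stage, and its part in the dip of NFKB1, LY96 and IRAK1 was not tested.

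**Figure D3:**
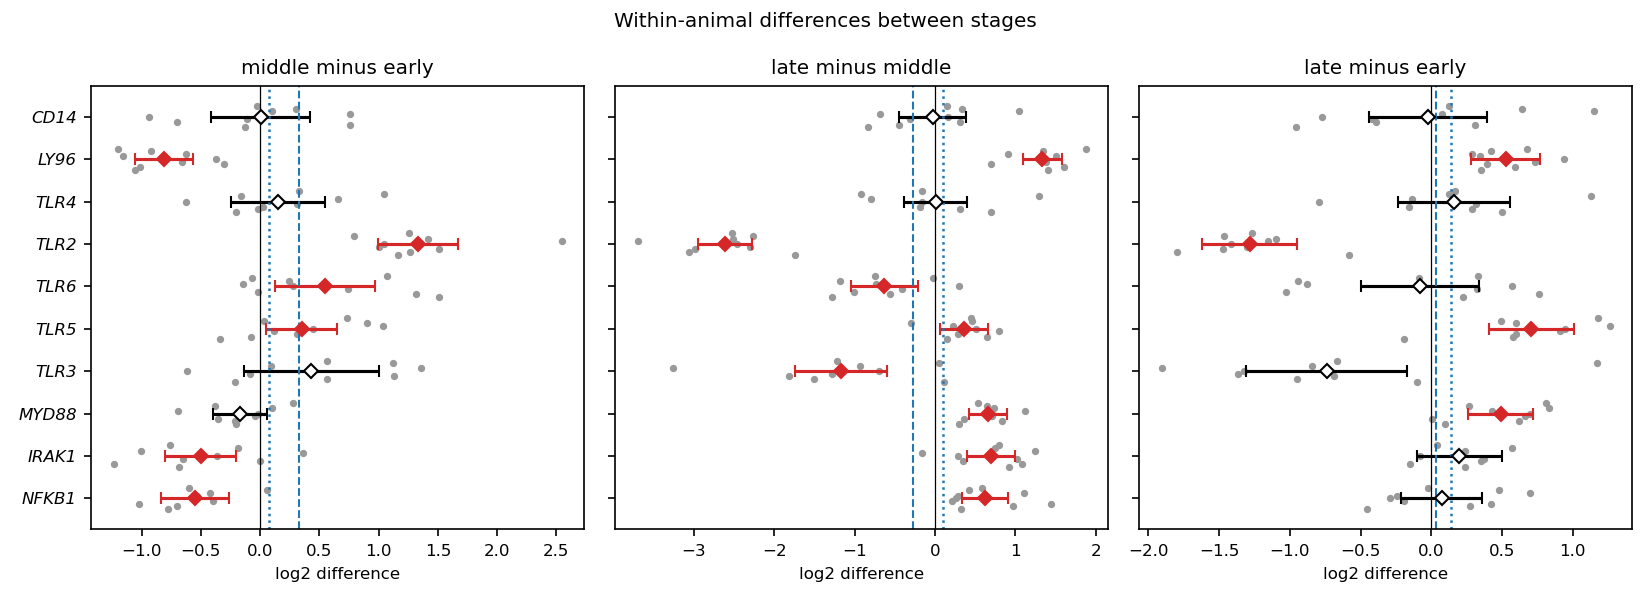
Log2 difference between stages for the 10 genes in each period, with gray points for the 9 cattle, diamonds for the fitted change and bars for its 95% interval, red where the limma adjusted *P* was below 0.05. The dashed line is the median change of all 15008 probes and the dotted line that of the 6797 probes measured on all arrays; in the total period LY96, TLR5 and MYD88 lie to the right and TLR2 to the left of both.

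The 3 periods share arrays, so their values are side by side and not independent. LY96 and NFKB1 were lower at the middle than at the early stage and higher again at the late stage, and MYD88 rose only from the middle stage on by this test. IRAK1 had the order of LY96 and NFKB1, but it was measured on only 4 of 9 middle-stage arrays. Both of its directions turned with normexp background correction. The probe named TLR2 went the opposite way. At the late stage, against the early, LY96, MYD88 and TLR5 were higher by 1.44-fold, 1.40-fold and 1.63-fold, the signal of the probe named TLR2 was lower, and CD14, TLR4, TLR6, TLR3, IRAK1 and NFKB1 did not pass the threshold. With slide as a random block 3, 5 and 1 of the 10 were past the threshold in the 3 periods, TLR2 being the 1 in the total period. With that block 6833, 7512 and 250 of all 15008 probes were past it in the 3 periods. Among all probes the share of higher against lower calls depended on the scaling. Cyclic loess gave 4045 higher and 4417 lower in the first period against 6793 and 3193 with the median, quantile normalization gave 4060 and 3860 in the second against 4046 and 6688, and 75th percentile scaling gave 998 and 1931 in the total period against 1679 and 1340. For the 10 genes cyclic loess gave 1 higher and 3 lower, 6 higher and 1 lower, and 2 higher and 1 lower.

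**Figure D4:**
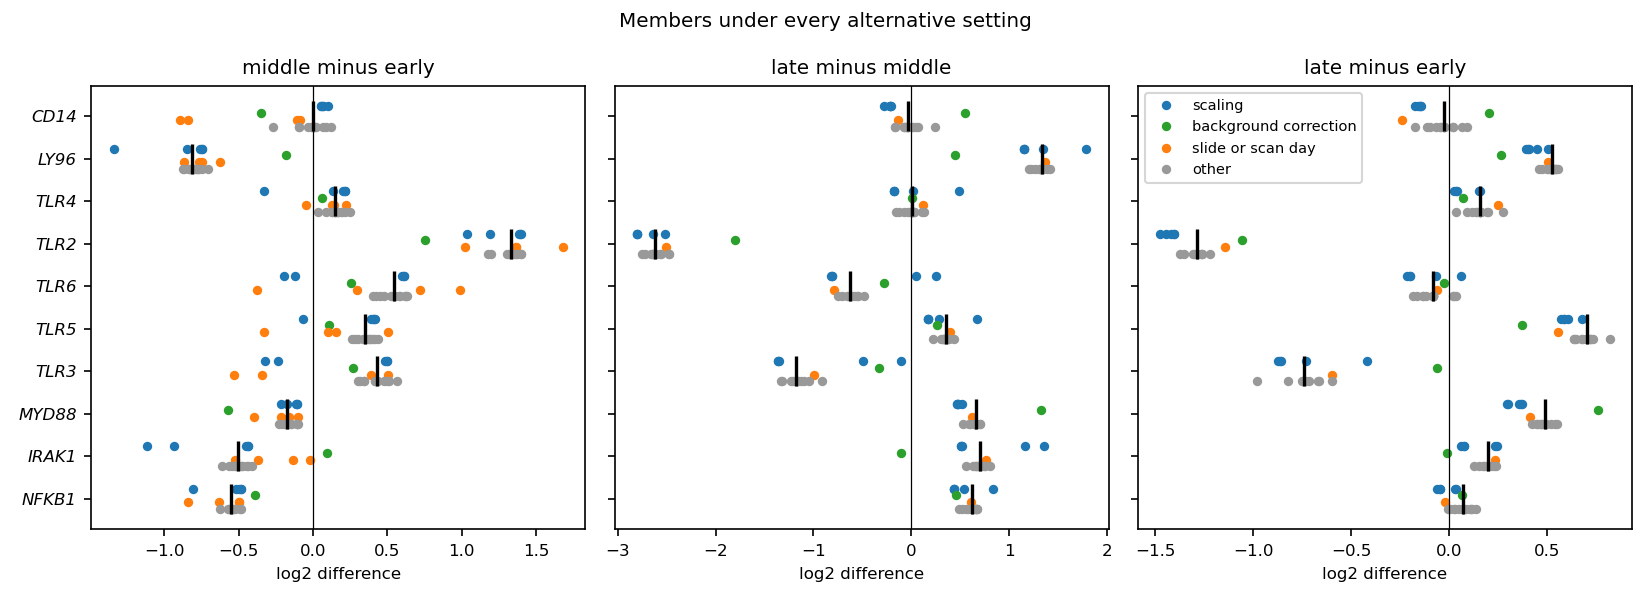
Log2 difference between stages of each of the 10 genes as reported (black bars) and under the alternative settings (points), which are colored by whether they change the scaling, the background correction, the treatment of slide or scan day, or something else. The points of TLR2, LY96 and MYD88 stay on 1 side of 0 in all 3 periods and those of NFKB1 in the first and second, whereas those of TLR6, TLR5, TLR4, TLR3, CD14 and IRAK1 fall on both sides of 0 in the first period.

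Other genes of the pathway were described from 9 lists, with 67 of their genes on the array. In the first period 17 of them were higher and 22 lower, in the second 21 higher and 19 lower, and in the total period 6 higher and 4 lower (limma adjusted *P* below 0.05). These are 39, 40 and 10 of 67, beside 66.5%, 71.5% and 20.1% of all probes, and so no larger a share than over the whole array. Their median log2 changes were −0.10, 0.03 and −0.02. The balance depended on the scaling, as 75th percentile scaling gave 20 higher and 20 lower, then 17 and 24, then 3 and 10, and cyclic loess gave 11 and 29, then 29 and 18, then 2 and 4. Of the 67, 50 were well above background on all 9 arrays of at least 1 stage and 4 on no array at all. The counts of higher and lower genes by role stand beside all-probe shares of 45.3% higher and 21.3% lower in the first, 27% and 44.6% in the second and 11.2% and 8.93% in the total period, and none was tested against them. Of 7 genes that transfer or detoxify LPS, 2 were higher and 3 lower in the first, 2 and 2 in the second and 0 and 0 in the total period. Of the 5 other TLRs, none of which was measured on a whole stage, 3 were higher in the first and 4 lower in the second period, the directions of unmeasured probes. The 3 TLR chaperones gave 2 higher, then 1 lower, then 1 higher.

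Of 4 further adaptors with a TIR domain, 2 were higher and 1 lower in the first period, 2 higher and 1 lower in the second and none in the total. Of 18 genes of IRAK and TRAF signaling, 2 were higher and 7 lower, then 6 higher and 5 lower, then 1 higher and 2 lower. The 7 other NF-kB subunits and IkB kinases gave 1 higher and 2 lower, then 3 higher and 0 lower, then 2 higher and 0 lower. Of 12 inhibitors of the pathway, 3 were higher and 6 lower, then 5 higher and 2 lower, then 1 and 1. The 5 interferon regulatory factors gave 0 higher and 3 lower, then 2 and 1, then 0 and 1, and the 6 NOD-like sensors gave 2 and 0, then 1 and 3, then 1 and 0.

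**Figure D5:**
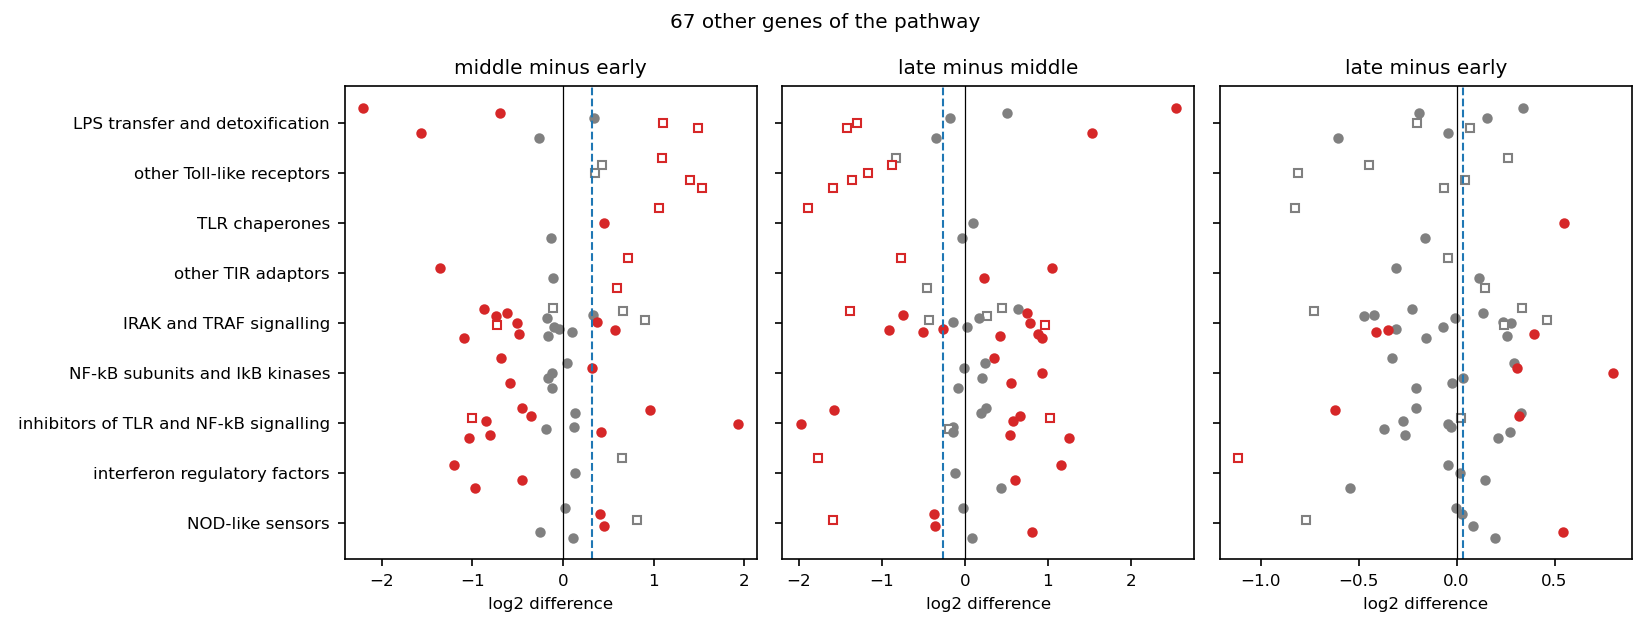
Log2 difference between stages of 67 other genes of the pathway by list and period, red where the limma adjusted *P* was below 0.05; circles were well above background on all 9 arrays of at least 1 of the 2 stages and open squares were not. The dashed line is the median of all probes; LBP lies far to the left in the first period and far to the right in the second, and ALPL lies beyond it but was measured on only 1 middle-stage array.

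LBP, the carrier that brings LPS to CD14, had early, middle and late mean levels of 4.29 ± 0.79, 2.72 ± 1.02 and 4.25 ± 0.63 (SD, n = 9). It fell in 8 of 9 cattle by 1.57 ± 0.39 on the log2 scale (limma adjusted *P* = 0.00188), then rose in 9 of 9 by 1.53 ± 0.39 (adjusted *P* = 0.00192), and the total change was −0.04 ± 0.39 (adjusted *P* = 0.963). ALPL, an alkaline phosphatase of the family that can dephosphorylate LPS, fell and then rose in 9 of 9 cattle (adjusted *P* = 1.22e-07 and 6.60e-09), but it was measured on only 1 middle-stage array, so no size is given. TICAM1, the adaptor of TLR3 and of endocytosed TLR4, and IRF3, the transcription factor it leads to, fell 2.57-fold and 2.2975-fold in 9 of 9 cattle (adjusted *P* = 3.06e-07 and 6.61e-07). TICAM1 was measured on 7 of 9 middle-stage arrays. In the second period IRF3 rose again by 1.16 ± 0.13 (adjusted *P* = 4.16e-07) and TICAM1 by 1.05 ± 0.14 (limma adjusted *P* = 2.58e-06). TOLLIP, an inhibitor of IRAK1, rose by 1.25 ± 0.15 in that period (adjusted *P* = 7.44e-07, measured on 4 of 9 middle-stage arrays). These genes and LY96 shared their lowest stage, but genes named for the largest falls and rises largely do so by that choice.

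RNF216, a ubiquitin ligase that targets TLRs, rose by 1.93 ± 0.21 in the first period and fell by 1.98 ± 0.21 in the second, in 9 of 9 cattle each time (limma adjusted *P* = 7.74e-07 and 2.40e-07). IL1RL1, the interleukin-33 receptor, rose by 0.96 ± 0.15, then fell by 1.58 ± 0.15, and ended lower by 1.54-fold in 9 of 9 cattle (total log2 change −0.62 ± 0.15, adjusted *P* = 0.00588). TBK1, a kinase upstream of IRF3, had log2 changes of 0.57 ± 0.11, −0.92 ± 0.11 and −0.35 ± 0.11. CNPY4, a chaperone of TLR4, rose by 0.45 ± 0.10 in the first period in 9 of 9 cattle (adjusted *P* = 0.000640), which is 0.13 above the median of all probes. The median of the probes measured on all arrays was 0.08 in that period. MAP3K7, the kinase TAK1, fell by 0.75 ± 0.17 in the second period in 9 of 9 (adjusted *P* = 0.000680).

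Over the total period the largest rise among the named pathway genes was that of NFKB2, the p100 precursor of the noncanonical NF-kB route. Its mean level was 1.89 ± 0.22 at the early and 2.69 ± 0.21 (SD, n = 9) at the late stage, a log2 change of 0.80 ± 0.11 in 9 of 9 cattle (limma adjusted *P* = 6.65e-05). CNPY4 was higher by 0.55 ± 0.10 (adjusted *P* = 0.000705), NOD2, the sensor of muramyl dipeptide, by 0.54 ± 0.16 (adjusted *P* = 0.0233), and TRAF6, the ubiquitin ligase downstream of IRAK1, by 0.40 ± 0.11 (adjusted *P* = 0.0155). TRAF3 fell by 0.41 ± 0.13 and TBK1 by 0.35 ± 0.11, both in 8 of 9 cattle (adjusted *P* = 0.0321 and 0.0286). With IL1RL1 these were 7 of 9 genes that met the rule for naming in that period. With slide as a random block only 1 of the 67 genes was past the threshold in the total period, and LY96, MYD88 and TLR5 were not (adjusted *P* = 0.305, 0.404 and 0.338).

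For the 4 genes measured on all arrays, the 3 most alike probes over the 27 arrays were sought among 6763 others that were measured on all arrays with no outlier spot. For TLR2 they were CHRM3 (Pearson r = 0.99), YARS2 (0.99) and DHTKD1 (0.99), whose probes share runs of at most 5, 8 and 9 bases with the TLR2 probe and which changed by −2.23, −2.93 and −3.79 in the second period. For MYD88 they were RASA2 (0.92), PRDM1 (0.91) and ADIPOR1 (0.90). NFKB1 was most alike to SFN (0.86), a gene of the epithelial marker list, GGTA1 (0.84) and TNFRSF1A (0.83), the receptor of tumor necrosis factor. With stage means kept, CD14 had the weakest likeness of the 4, to TNFSF13 (0.69), NFKBIA (0.65), the NF-kB inhibitor IkB alpha, and CNFN (0.63). After stage means were subtracted the correlations were 0.88 to 0.93 for TLR2, 0.74 to 0.81 for MYD88, 0.62 to 0.70 for NFKB1 and 0.73 to 0.75 for CD14. All points share the scaling of their array, and the correlations are descriptions without a test.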

How the data were processed

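RNA from 27 RE biopsies was labeled with cyanine 3 by the authors and hybridized to 1-color arrays. The deposited intensity values come from Agilent Feature Extraction (9.5 in the labels, 11.0.1.1 in the file headers), which subtracts local background, and the well above background, saturated and outlier flags are as deposited. The authors also deposited log2 values, used as an alternative, which equal the log2 signal minus about the 75th percentile of each array. Depth has no meaning here, and the number of arrays and the signal over background limit precision.

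Of 15646 spots, 15110 were not controls and held 15008 probes, with 14952 gene names of the array design, and 11194 probes matched RefSeq by accession. The array median of the log2 signal was subtracted, outlier spots were left missing and saturated ones kept. The methods divide by the median likewise. limma 3.58.1 in R 4.3.3 fitted stage means with the animal as a block, and Benjamini-Hochberg adjustment ran over all probes. The same cattle pair the arrays, and deviations from stage means correlated at 0.16 on average within animals (27 pairs, 24 above 0) and −0.02 between animals. The procedure was tested on simulated data, and no outcome of that test is reported here. Where a probe is dark on all arrays of a stage, "at least" folds would be set against the lowest signal well above background. None exceeded 1 for the 10 genes, and 1 did among the others (NLRP3 in the second period, 1.17).

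The members and gene lists were chosen with earlier results of these data known. Other pathway genes were named per comparison as the 4 largest rises and falls with an adjusted *P* below 0.05, the same direction in at least 8 of 9 cattle and all 9 arrays of a stage well above background. LBP, TLR1 and TLR10 were always named. The probe with the highest mean signal stood for a gene. UNC93B1, OTULIN and 7 marker genes were not matched to a probe, and 2 planned marker genes are not reported here and were left out of the marker lists. Alternatives were 75th percentile, quantile and cyclic loess scaling, normexp with an offset of 50, dim probes removed, outlier spots kept, the series matrix, no animal block, the slide entered as random or as fixed block, arrays of slide 2 only, a paired t-test as in the methods, fits of 2 stages, middle-stage arrays under 60% well above background left out, and each animal left out. The first scan day alone and the median of bright probes were added after seeing the data.

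Other tools were statmod 1.5.0, data.table (version 1.17.8), Python 3.11.15, pandas 2.3.3 and numpy 2.4.6. No genome was used, and probe positions are those of the array design on bosTau6 (UMD_3.1).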

Additional observations from a re-analysis of the deposited data

Results flagged for a closer look

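Of 30 groups tested, 10 genes at 3 stages, 2 had a sample far from the others, judged by the gap to its neighbor divided by the whole range of the 9 values. Chance flags about 1 in 20 groups. For TLR5 at the early stage the ratio was 0.560, where animal 9 had a level of 0.85 and the next animal 0.30. That array was the only early-stage array on slide 2, so every comparison within slide 2 rests on it. It also had the highest early-stage sums of the leukocyte genes (206 against a stage median of 99.99) and the macrophage markers (107 against 59.99). The same held for the T cell list (23.2 against 11.996) and the B cell list (13.0 against 3.83). The part of this in the values of that array was not tested. For LY96 at the early stage the ratio was 0.525, where animal 5 had a level of −0.10 and the next animal 0.20. Without animal 5 the total change of LY96 was 0.47, and without animal 9 that of TLR5 was 0.82.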

How the results depend on the processing

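Of the 10 genes, 6, 8 and 4 were called in the first, second and total period. In the first period 3 were called with slide as a random block, 0 with slide as a fixed block (0 at an unadjusted *P* below 0.05) and 0 with slide 2 alone (2 unadjusted). In the second, 5 were called with quantile normalization, 5 with dim probes removed (8 genes kept) and 5 with slide as a random block, and in the total period 1 with slide as a random block. Leaving out 1 animal gave 4 to 6, 7 to 8 and 4 to 5.

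TLR5 in the first period was −0.063 with cyclic loess and −0.33 with slide 2 alone. TLR6 in the first period was −0.19 with quantile normalization, −0.12 with cyclic loess and −0.37 with slide 2 alone. In the second period TLR6 was 0.25 with quantile normalization and 0.051 with cyclic loess. TLR6 was measured on only 1 middle-stage array. Its values here therefore show only the turned direction and are not sizes of change. With normexp background correction CD14 in the second period was 0.55, which was also the median of the probes bright on all arrays in that setting, and IRAK1 was 0.096 in the first and −0.11 in the second. Of changes not called in the first place, those of TLR3, TLR4 and CD14 in the first period, TLR4 in the second and CD14, TLR6, IRAK1 and NFKB1 in the total period also had both signs. The cause was not tested.

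Without the animal block, 5, 7 and 4 of the 10 were called. TLR6 lost its call in the first and second periods, and no other call among the 10 changed.

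Of 67 other pathway genes, 39 were called in the first period, 24 with slide as a random block, 4 with slide as a fixed block and 0 with slide 2 alone (13 unadjusted). In the total period 10 were called, against 5 with quantile normalization, 6 with cyclic loess, 4 with normexp background correction, 1 with slide as a random block, 20 with the methods' paired t-test, 21 with only the 2 stages compared and 20 without the dim middle-stage arrays. Leaving out 1 animal gave 5 (without animal 3) to 12 (without animal 9).

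Of all probes 9986 were called in the first period, against 6549 with dim probes removed (10165 kept), 1238 with slide as a fixed block and 7 with slide 2 alone. In the second 10734 were called, against 6947 of those 10165 with dim probes removed. In the total period 3019 were called, against 1166 with normexp background correction, 250 with slide as a random block, 4814 with only the 2 stages compared and 4873 without the dim middle-stage arrays. The first scan day alone and the median of bright probes were chosen after seeing the data.

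The signal over background limits what dim probes can show. With 9 cattle and stage bound to slide and scan day, stage and slide cannot be told apart for the late stage, and a first-period comparison within slide 2 rests on 1 early-stage array. The arrays cannot tell fewer cells from less RNA per cell.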
